A study of Mus musculus with 24 samples.

Results

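Cultured neural stem cells (NSCs) were set against astrocytes taken straight from the neonatal mouse brain (neoAC direct), as 4 RNA-seq libraries against 4, out of 24 libraries of 6 groups in the study. All genes outside chromosomes X and Y were compared, which left 18941 tested genes of the 49671 in the count table. The NSCs had been derived from a single murine embryonic stem cell line, GSC-5003, which came from C57BL/6N mice. They were expanded as an adherent culture in N2B27 medium with FGF and EGF. Their replicates were independent cultures at different passages of that line. The neoAC direct were ACSA-2-positive cells collected with magnetic beads from the dissociated cerebral tissue of C57BL/6J pups. The pups were of both sexes and about a week old or younger. The meninges were removed, mice were pooled in each isolation, and the cells were frozen without culture. The labels name no transgene, allele or drug for either group. ACSA-2 is an epitope of the sodium pump subunit encoded by Atp1b2. The groups therefore differed at once in cell type, origin, culture, growth factors, isolation and mouse substrain, and these cannot be told apart in this comparison.

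Neural stem cells divide and can give rise to neurons, astrocytes and oligodendrocytes, and in culture FGF and EGF keep them in the cell cycle. Astrocytes descend from radial glia, the stem cells of the embryonic brain. They clear glutamate from synapses, buffer potassium and water, supply neurons with lactate and lipids, and build matrix around synapses and vessels. In the first week after birth cortical astrocytes still divide while these functions are coming on.

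The NSC libraries held 30371350 to 35192197 counts and the neoAC direct libraries 30502488 to 37997368, with at least 1 count for 20777 to 21742 and 22859 to 23643 genes, respectively. Levels are in CPM, read counts scaled to library size by the TMM method, and a value with ± is the mean and SD of the 4 libraries in a group. A group whose 4 libraries all held 3 counts or fewer of a gene was taken to be at the floor of 3 counts a library, 0.0962 CPM in NSCs and 0.0956 CPM in neoAC direct, and folds against a group with no count are lower bounds set at that floor. The floor and the counting intervals cover counting error only. Mitochondrially encoded transcripts made up 1.65 to 2.82% of the counts in NSCs and 0.990 to 1.94% in neoAC direct, where replicate 4 stood apart from the other 3 libraries at or under 1.04%. NSC replicate 2 stood apart in genes of glucose use, described below with the values of each library.

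NSCs and neoAC direct differed across most of the transcriptome. Of the 18941 genes, 7086 (37.4%) were higher and 8058 (42.5%) lower in NSCs at an edgeR adjusted p under 0.05, 80.0% in all. The libraries of the groups did not overlap for 13356 genes (70.5%). Changes of at least 2-fold were called for 3988 genes higher and 6072 lower in NSCs, and changes of at least 16-fold for 344 and 2766. NSCs were at the floor for 2206 genes that neoAC direct expressed, whereas neoAC direct were at the floor for 353 genes that NSCs expressed. The median log2 fold change over all genes was −0.11 (−0.25 with DESeq2 size factors), or −0.07 with genes at the floor set to their bound, and medians of gene lists are read against it. Positive log2 fold changes stand for higher values in NSCs throughout. Counts of list members called are read against the shares of all genes, 37.4% higher and 42.5% lower. Because 80.0% of all genes passed the test, a call on a single gene is common, and the lists differ mainly in how far and how uniformly their members moved.

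**Figure D1:**
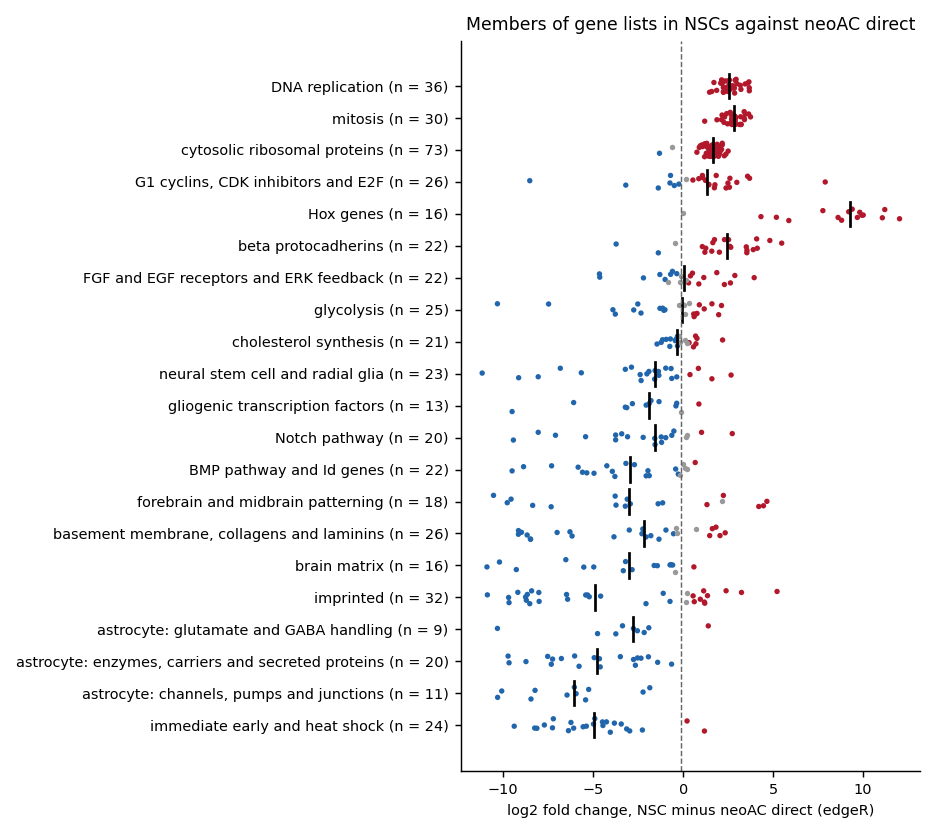
Log2 fold change of NSCs minus neoAC direct (horizontal axis) for the tested members of the gene lists (rows). Each point is a gene, red where higher and blue where lower in NSCs at an adjusted p under 0.05 and grey otherwise, the black bar is the list's median and the dashed line the median of all genes at −0.11. All points of DNA replication and mitosis lie to the right, all points of the astrocyte channels list to the left, and Hox genes reach furthest right. Points of genes at the floor in a group are estimates of the fit.

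The neoAC direct libraries held the defining genes of astrocytes. Of the 8 astrocyte markers Slc1a2, Slc1a3, Aqp4, Gja1, Aldoc, Aldh1l1, S100b and Gfap, all were lower in NSCs, by a log2 fold change of −1.42 for S100b to −10.08 for Aqp4. In bulk samples such as these, fewer cells of a kind and less RNA per cell cannot be told apart. The markers of the stem cell label divided. Nes, which encodes the intermediate filament protein of neural progenitors, had 1340.0, 1258, 1593 and 1402 CPM in the NSC libraries and 301, 227, 348 and 231 CPM in neoAC direct, so every NSC library lay above every astrocyte library (log2 fold change 2.34 with a standard error of 0.164, edgeR adjusted p = 1.33e-12). Sox2, the SoxB1 factor that maintains progenitors, had 107, 105, 77.5 and 104 CPM in NSCs against 360.0, 385, 399 and 328 CPM in neoAC direct. It was thus well expressed in NSCs and still lower than in neonatal astrocytes (log2 fold change −1.90 with a standard error of 0.113, edgeR adjusted p = 4.72e-14). Pax6, Msi1 and Fabp7 were also detected in NSCs and lower there, Pax6 at 38.1 against 98.8 CPM, Msi1 at 46.8 against 189 CPM and Fabp7 at 806 against 5899 CPM.

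Other defining stem cell genes were nearly absent from the NSC libraries. Sox1 had 2.35, 3.097, 2.48 and 2.81 CPM in NSCs and 126, 149, 144 and 124 CPM in neoAC direct. Hes5, the Notch target that keeps radial glia undifferentiated, had 1.402, 3.704, 1.11 and 1.37 CPM in NSCs and 569, 550.4, 612 and 308 CPM in neoAC direct, and exons of Hes5 overlap a gene model on the opposite strand. Prom1, which encodes the surface protein prominin used to sort neural stem cells, had 0.151 ± 0.0668 CPM in NSCs and 87.9 ± 11.1 CPM in neoAC direct, and Nr2e1, the orphan receptor of adult stem cells, had 1.52 ± 0.493 CPM in NSCs and 172 ± 16 CPM in neoAC direct. For none of these did the groups overlap. In the whole list of neural stem cell and radial glia genes, 4 of 23 tested members were higher and 19 lower in NSCs (median log2 fold change −1.58). Among the members higher in NSCs were Olig2 (624 against 206 CPM) and Olig1 (1334 against 742 CPM), basic helix-loop-helix factors of ventral and oligodendrocyte progenitors, and Cd44 (276 against 43.6 CPM), the hyaluronan receptor of glial progenitors. The NSC libraries thus held Nes, Olig2 and Sox2, though Sox2 was lower than in neoAC direct. Sox1, Hes5, Prom1 and Nr2e1 were all at or under 3.704 CPM in every NSC library.

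**Figure D2:**
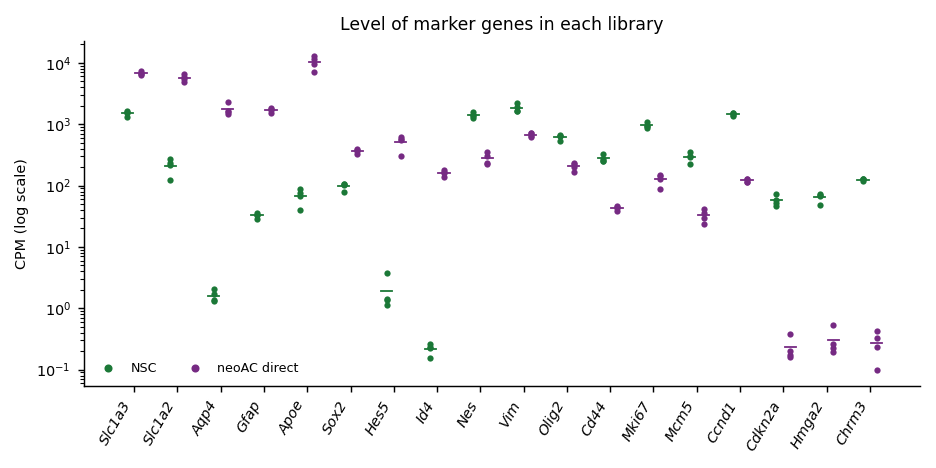
CPM on a log scale (vertical axis) of marker genes in the 4 NSC libraries (green) and the 4 neoAC direct libraries (purple), 1 point a library, with a line at the mean. The astrocyte genes at the left are lower in NSCs, down to 1.61 CPM for Aqp4, and Nes, Vim, Olig2, Cd44 and the cycle genes are higher without overlap.

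The same genes differed among the other groups of the study. Sox1 stood at 69.3 ± 2.55 CPM in cultured neonatal astrocytes (neoAC CellC), 96.3 ± 6.62 CPM in adult astrocytes isolated directly (AdAC direct) and 0.432 ± 0.170 CPM in AGES, the astrocytes made from these NSCs. Hes5 in AGES stood at 4.301 ± 1.43 CPM, with 0.801 ± 0.0936 CPM in neoAC CellC, and at 95.6 ± 23.4 CPM in AdAC direct.

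Genes for the handling of glutamate and GABA were lower in NSCs for 8 of 9 members, with a median log2 fold change of −2.77. The astrocyte glutamate transporters differed in degree. Slc1a3 (GLAST, chromosome 15 of GRCm38 from 8634124 to 8710764) had 1513, 1571, 1299 and 1615 CPM in NSCs and 6559.8, 6229, 6727 and 7372 CPM in neoAC direct (log2 fold change −2.16 with a standard error of 0.138, edgeR adjusted p = 1.75e-13). Slc1a2 (GLT-1, chromosome 2 of GRCm38 from 102658659 to 102790784) had 233, 122, 217 and 269.9 CPM in NSCs, lowest in replicate 2, and 5455, 5838, 4934 and 6488 CPM in neoAC direct (log2 fold change −4.76 with a standard error of 0.199, edgeR adjusted p = 4.15e-17). NSCs thus kept more of the astrocyte level of Slc1a3 than of Slc1a2. Slc6a11, the GABA transporter GAT-3 of astrocytes, showed the widest gap of the list, with 3.55, 3.79, 2.67 and 3.24 CPM in NSCs and 4235, 4819.5, 4373 and 3560.3 CPM in neoAC direct (log2 fold change −10.32 with a standard error of 0.243, edgeR adjusted p = 3.74e-22). Also lower were Glul, the glutamine synthetase (534 against 3633 CPM), and Glud1, the glutamate dehydrogenase (174 against 2319.9 CPM).

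Every one of the 11 tested genes for astrocyte channels, pumps and junctions was lower in NSCs, with no overlap between the libraries (median log2 fold change −6.04). Aqp4, the water channel of astrocyte endfeet, had 1.695, 2.03, 1.34 and 1.37 CPM in NSCs and 1573, 1661, 1457 and 2316 CPM in neoAC direct, where replicate 4 was highest. Kcnj10, the inward rectifier Kir4.1 that clears potassium, had 2.55 ± 0.958 CPM in NSCs and 901 ± 87.3 CPM in neoAC direct. Gja1, the gap junction protein connexin 43, had 15.5 ± 1.41 CPM in NSCs and 1359 ± 149 CPM in neoAC direct. Atp1b2, whose product carries the ACSA-2 epitope, had 48.9 ± 13.5 CPM in NSCs and 1859 ± 127 CPM in neoAC direct, and since the sort selected for it this difference is not a finding. The members closest to the astrocyte level were Mlc1 (491 against 1772 CPM) and Hepacam (158 against 739.6 CPM), partners at astrocyte junctions.

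All 20 tested enzymes, carriers and secreted proteins of astrocytes were lower in NSCs as well (median log2 fold change −4.80). Apoe, the lipid carrier that astrocytes secrete, had 75.6, 86.9, 40.4 and 66.7 CPM in NSCs and 9654, 12729, 11659 and 7165 CPM in neoAC direct. Clu, another secreted lipid carrier, had 9.28 ± 0.726 CPM in NSCs and 1714 ± 191 CPM in neoAC direct, and Ndrg2, a cytoplasmic protein of mature astrocytes, had 2.73 ± 0.747 CPM in NSCs and 2234 ± 217 CPM in neoAC direct. Slc7a10, an amino acid exchanger, was at 0.389 against 335 CPM (log2 fold change −9.73). Sparcl1, which promotes synapse formation, kept 1159 ± 105 CPM in NSCs against 7836 ± 316 CPM, and Acsbg1, an acyl-CoA synthetase, differed least (648 against 1012 CPM, log2 fold change −0.64). Among intermediate filament genes, Gfap had 36.1, 33.1, 29.04 and 33.3 CPM in NSCs and 1866, 1727, 1546 and 1749 CPM in neoAC direct, while Vim was the reverse, with 1910.5, 2232, 1646 and 1634 CPM and 706, 634, 730.4 and 621 CPM. Each separated the groups without overlap. Ina, the filament protein alpha-internexin, was higher in NSCs (33.3 against 6.45 CPM), and Synm and Des lower.

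Cell cycle genes differed as uniformly in the opposite direction. All 36 DNA replication genes and all 30 mitosis genes passed the test as higher in NSCs, against 37.4% of all genes, and none of them overlapped between the groups. Their median log2 fold changes were 2.53 and 2.85. Of the replicative helicase, Mcm5 had 294, 229, 355 and 306 CPM in NSCs and 36.3, 29.05, 42.1 and 23.8 CPM in neoAC direct (log2 fold change 3.17 with a standard error of 0.190, edgeR adjusted p = 1.65e-13), and Mcm3 and Mcm6 had 317 against 53.3 CPM and 325 against 44.8 CPM. Cdc6, which loads the helicase, Tk1, the thymidine kinase of S phase, and Mcm10 were among the members furthest apart, at 69.8 against 5.46 CPM, 179.6 against 16.5 CPM and 98.5 against 7.72 CPM. Of the mitotic genes, Mki67, which encodes the proliferation antigen Ki-67, had 936, 878, 944 and 1072 CPM and 149, 87.1, 142 and 127 CPM (log2 fold change 2.92 with a standard error of 0.158, edgeR adjusted p = 7.76e-15). Kif20a, a kinesin of the central spindle, was at 272 against 20.3 CPM, Cdc20, the activator of the anaphase-promoting complex, at 204 against 32.4 CPM, and Ube2c, its ubiquitin-conjugating enzyme, at 218 against 24.8 CPM. Ccnb2 differed least (45.1 against 19.7 CPM, log2 fold change 1.20). The neonatal astrocytes were not without cycling transcripts, with summed mitosis levels of 1181, 752, 1210.2 and 989 CPM in replicates 1 to 4, against 7516, 7042, 7706 and 7320.1 CPM in NSCs.

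The promoters of 4 of these genes are shown because the members of both lists moved together and because letters known from cell cycle promoters recur in them. They are RefSeq windows on GRCm38.p6 from 250 bases before to 50 bases after the start, on the strand of the gene. Their coordinates are Mcm3 chr1:20820263-20820562 on the minus strand, Mcm6 chr1:128359656-128359955 on the minus strand, Cdc20 chr4:118437294-118437593 on the minus strand and Ube2c chr2:164769679-164769978 on the plus strand. Capitals mark the E2F letters TTTCCCGC or TTTGGCGC in Mcm3 and Mcm6, and the CHR letters TTTGAA and the CCAAT box in Cdc20 and Ube2c, on either strand.
Mcm3: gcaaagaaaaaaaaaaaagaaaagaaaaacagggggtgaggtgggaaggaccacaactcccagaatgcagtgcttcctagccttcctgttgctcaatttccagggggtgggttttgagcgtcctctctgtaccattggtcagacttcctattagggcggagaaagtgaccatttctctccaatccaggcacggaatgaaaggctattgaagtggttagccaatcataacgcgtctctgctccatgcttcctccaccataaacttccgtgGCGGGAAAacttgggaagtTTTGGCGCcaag
Mcm6: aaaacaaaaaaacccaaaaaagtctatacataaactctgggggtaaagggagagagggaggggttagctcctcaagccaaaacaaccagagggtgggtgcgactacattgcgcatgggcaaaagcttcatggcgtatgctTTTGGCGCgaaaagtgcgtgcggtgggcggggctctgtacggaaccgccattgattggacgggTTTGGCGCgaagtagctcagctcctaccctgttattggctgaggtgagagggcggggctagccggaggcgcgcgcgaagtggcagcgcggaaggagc
Cdc20: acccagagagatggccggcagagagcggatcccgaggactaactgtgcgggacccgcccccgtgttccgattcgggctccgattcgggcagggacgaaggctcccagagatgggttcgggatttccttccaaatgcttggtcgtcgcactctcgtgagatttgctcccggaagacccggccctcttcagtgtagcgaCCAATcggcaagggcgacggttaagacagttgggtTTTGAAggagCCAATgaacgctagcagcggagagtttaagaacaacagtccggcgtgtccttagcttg
Ube2c: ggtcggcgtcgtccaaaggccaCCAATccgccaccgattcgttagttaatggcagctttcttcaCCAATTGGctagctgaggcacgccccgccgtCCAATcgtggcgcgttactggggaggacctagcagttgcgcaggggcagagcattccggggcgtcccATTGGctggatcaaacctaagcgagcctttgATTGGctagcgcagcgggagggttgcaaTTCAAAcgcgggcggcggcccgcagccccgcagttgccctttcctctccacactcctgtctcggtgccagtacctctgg

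Over all members with a window, the E2F letters stood in 10 of 35 windows of replication genes (28.6%) and in 0 of 26 windows of mitosis genes, against 1.56% of all 31396 windows outside X and Y. The CHR letters stood in 20 of 26 mitosis windows (76.9%), 4 of 35 replication windows and 17.6% of all. CCAAT on either strand was in 84.6% of mitosis windows, 54.3% of replication windows and 37.3% of all. The E2F letters, TTTGAA and CCAAT share no common core, and windows were found for 30 of 36 replication and 25 of 30 mitosis genes. E2F factors act on replication genes at the start of S phase and the CHR element on mitotic genes later in the cycle, and a match of letters describes the window only.

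Regulators of the G1 phase did not move as one. In their list 18 of 26 members were higher and 7 lower in NSCs (median log2 fold change 1.33). Ccnd1, the cyclin D1 induced by growth factors, was 1459 ± 95.4 CPM in NSCs and 122 ± 8.42 CPM in neoAC direct, while Ccnd2 was 786 against 707 CPM and did not pass the test (edgeR adjusted p = 0.411). Per kilobase of exon, Ccnd1 therefore made up 78.7 ± 2.22% of the pair in NSCs and 25.8 ± 3.18% in neoAC direct. The E cyclins Ccne1 (57.7 against 9.54 CPM) and Ccne2 (38.7 against 3.003 CPM) were higher, and Cdk6 was lower (2.12 against 19.4 CPM). The inhibitors of the INK4 locus were also higher in NSCs. Cdkn2a, which encodes p16 and p19Arf, had 57.8, 72.4, 47.2 and 51.5 CPM in NSCs and 0.163, 0.388, 0.170 and 0.200 CPM in neoAC direct (log2 fold change 7.90 with a standard error of 0.202, edgeR adjusted p = 1.57e-21), and its neighbour Cdkn2b had 13 ± 6.41 CPM in NSCs and 1.62 ± 0.699 CPM in neoAC direct. Cdkn1a (p21) was higher too (109 against 18.2 CPM), Cdkn1b (p27) lower (104 against 146 CPM), and Cdkn1c (p57), an imprinted gene, had 13.2 ± 1.66 CPM in neoAC direct and was at the floor in NSCs. Of 14 p53 target genes, 9 were higher and 4 lower in NSCs, Ccng1 (226 against 59.1 CPM) and Phlda3 (52.4 against 13.3 CPM) among the higher.

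Factors of early development and chromatin were split, 8 of 17 higher and 8 lower. Hmga2, a chromatin protein of fetal stem cells that let-7 represses, had 72.3, 66.5, 47.3 and 71.3 CPM in NSCs and 0.195, 0.222, 0.544 and 0.266 CPM in neoAC direct (log2 fold change 7.72 with a standard error of 0.453, edgeR adjusted p = 3.14e-13). Trim71, another let-7 target, was at 5.67 ± 1.44 CPM in NSCs and 0.0475 ± 0.0321 CPM in neoAC direct, where neoAC direct was at the floor. Myc (214 against 47.2 CPM), the maintenance methyltransferase Dnmt1 (435 against 95.6 CPM) and the Polycomb methyltransferase Ezh2 (188 against 46.1 CPM) were higher in NSCs. Mycn (0.200 against 5.01 CPM) and the de novo methyltransferase Dnmt3a (165 against 291 CPM) were lower. Of 16 pluripotency genes, 5 passed the filter on low counts, and none reached 10 CPM in NSCs. Esrrb was at 7.47 ± 0.655 CPM in NSCs and 1.48 ± 0.252 CPM in neoAC direct, whereas Klf4 was lower in NSCs (9.697 against 217 CPM) and is also an immediate early gene.

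Genes of FGF and EGF reception and ERK feedback were split, with 10 of 22 higher in NSCs and 8 lower, against 37.4% and 42.5% of all genes tested, and a median log2 fold change of 0.02. Dusp6, a phosphatase of ERK, had 527, 403, 461 and 522 CPM in NSCs and 83.7, 87.7, 70.2 and 67.8 CPM in neoAC direct, with no overlap. Dusp4 (149 against 9.63 CPM), Spry4 (566 against 77.2 CPM) and Etv5 (1198 against 244 CPM) were higher in the same way, whereas Spry2 (220.2 against 333 CPM) and Etv4 (152 against 304 CPM) were lower. Among the receptors, Fgfr3 was 43.2 against 1086 CPM (log2 fold change −4.65) and Fgfr2 47.5 against 219 CPM, Egfr was slightly lower (252 against 322 CPM) and Fgfr1 did not pass the test (499.7 against 446 CPM, edgeR adjusted p = 0.0908). Per kilobase, Fgfr1 made up 89.7 ± 4.42% of Fgfr1 and Fgfr3 together in NSCs and 23 ± 1.12% in neoAC direct.

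Notch genes were lower in NSCs for 16 of 20 members and higher for 2 (median log2 fold change −1.57). Receptors, targets and feedback genes were among the lower. Notch3 was at 120.2 against 560.2 CPM, Notch1 at 326 against 637 CPM, the feedback inhibitor Nrarp at 30.3 against 409 CPM and the target Hey1 at 16.96 against 144 CPM. Heyl was 0.0658 ± 0.0802 CPM in NSCs and 46.98 ± 7.84 CPM in neoAC direct and Hey2 0.230 ± 0.163 CPM in NSCs and 32.2 ± 3.11 CPM in neoAC direct. The members higher in NSCs were the ligand Jag1 (179 ± 27.2 CPM in NSCs and 26.95 ± 3.39 CPM in neoAC direct) and Hes6 (82.1 against 40.4 CPM), which counteracts other Hes factors. BMP genes and their Id targets were lower for 17 of 22 members and higher for 1, Smad5. The Id proteins hold back basic helix-loop-helix factors. Id4 had 0.261, 0.152, 0.223 and 0.234 CPM in NSCs and 136, 162, 177 and 165 CPM in neoAC direct (log2 fold change −9.50 with a standard error of 0.387, edgeR adjusted p = 3.28e-16). Id2 (22.7 against 428 CPM), Id1 (17.5 against 159 CPM) and Id3 (151 against 627 CPM) were lower by smaller steps, while the receptor Bmpr2 (176 against 176 CPM) did not pass the test. AGES, which had received BMP4, held 11.5 ± 5.95 CPM of Id4.

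Of 12 Hedgehog genes 3 were higher and 6 lower in NSCs, the target Gli1 at 1.13 ± 0.392 CPM in NSCs and 54.7 ± 7.51 CPM in neoAC direct and the receptor and target Ptch1 at 94.4 against 405 CPM. Of 23 WNT genes 3 were higher and 14 lower, with 1 higher without NSC replicate 1. The secreted WNT antagonists Sfrp1 (0.644 ± 0.272 CPM in NSCs and 154 ± 13.2 CPM in neoAC direct) and Dkk3 (1.33 ± 0.634 CPM in NSCs and 372 ± 25.95 CPM in neoAC direct) were lower, while the feedback target Axin2 (96.3 against 106 CPM) and the ligand Wnt7a (113 against 114 CPM) did not pass the test. Transcription factors of gliogenesis were lower for 11 of 13 members. Sox9, which starts gliogenesis, was at 79.3 against 559 CPM, Nfix at 201 against 508 CPM, and Nfia did not pass the test (190.1 against 205 CPM). Sox8 was the member higher in NSCs (207 against 113 CPM).

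Genes that mark the position of a cell along the neural axis led the genes higher in NSCs. Hox genes specify the hindbrain and spinal cord and are silent in the forebrain. Of 39 Hox genes, 16 passed the filter on low counts, which most could pass only through the groups that express them, and 15 of these were higher in NSCs. NeoAC direct were at the floor for 13 of them. The summed level was 226, 242, 216 and 211 CPM in NSC replicates 1 to 4 and 0.585, 0.471, 0.442 and 0.333 CPM in neoAC direct. Hoxa5 (chromosome 6 of GRCm38 from 52201754 to 52204587) had 63.7, 76.4, 56.9 and 63.2 CPM in NSCs and 3 counts in the 4 neoAC direct libraries together. Scaled for library size this was a ratio of 2748 with a 95% counting interval of 940.0 to 13329. Hoxa3 had 48.9 ± 3.59 CPM, Hoxa2 19.2 ± 1.82 CPM and Hoxb4 12.1 ± 1.91 CPM in NSCs, all with neoAC direct at the floor, and Hoxa10 with 8.24 ± 1.09 CPM and no count in neoAC direct was at least 86.2-fold higher. Exons of Hoxa3 and Hoxa7 overlap transcripts on the opposite strand. The Hoxb genes Hoxb8 and Hoxb9 and the Hoxd gene Hoxd8 stayed low in NSCs, at 1.49, 1.19 and 1.00 CPM.

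Forebrain genes were the counterpart. Fezf2 and Emx1, factors of the cortical field, stood at 17.4 ± 1.31 CPM and 8.95 ± 1.97 CPM in neoAC direct with NSCs at the floor, and Otx2, of forebrain and midbrain and also of the choroid plexus, at 0.0554 ± 0.0646 CPM in NSCs and 19.7 ± 1.89 CPM in neoAC direct. Emx2 (7.82 against 67.5 CPM), Otx1 (6.69 against 51.3 CPM) and Lhx2 (24.9 against 231 CPM) were lower in NSCs without being lost. En2, En1 and Gbx2, which mark the midbrain and anterior hindbrain, were higher in NSCs, En2 at 21.9 ± 0.979 CPM in NSCs and 0.860 ± 0.308 CPM in neoAC direct, En1 at 6.55 against 0.293 CPM and Gbx2 at 3.59 against 0.754 CPM. In the list of forebrain and midbrain genes 5 of 18 were higher and 12 lower (median log2 fold change −3.02, −2.16 with genes at the floor set to their bound). Of the caudal and ventral genes, 3 of 15 were higher, led by Pax7, a factor of the dorsal neural tube and midbrain (33.6, 26.7, 34.2 and 34.8 CPM in NSCs and 0.130, 0.997, 0.272 and 0.166 CPM in neoAC direct, log2 fold change 6.28 with a standard error of 0.366, edgeR adjusted p = 4.91e-14). Without neoAC direct replicate 2 the log2 fold change of Pax7 was 7.39. The ventral factors Nkx2-2, with 27.2 ± 4.32 CPM, and Nkx6-2, with 7.98 ± 1.97 CPM in neoAC direct, were at the floor in NSCs.

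In AGES, Hoxa5 stood at 65.01 ± 3.17 CPM and Hoxb4 at 11.1 ± 0.257 CPM. In neoAC CellC Hoxa5 was 0.0351 ± 0.0348 CPM. AGES share their cell line with the NSCs, and neoAC CellC share the tissue and isolation with neoAC direct.

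**Figure D3:**
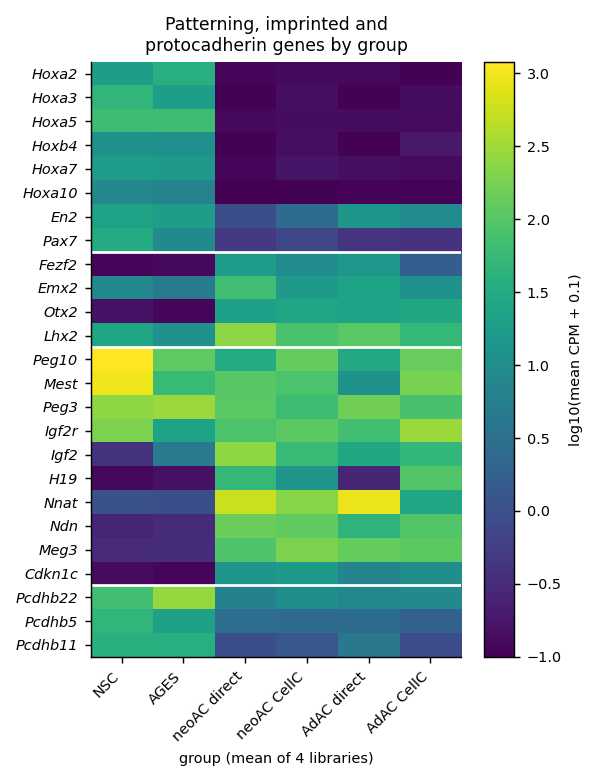
Mean level of patterning, imprinted and beta protocadherin genes (rows) in the 6 groups (columns), as the base-10 logarithm of mean CPM plus 0.1, with yellow high and dark blue low. White lines separate Hox, En2 and Pax7, forebrain genes, imprinted genes and beta protocadherins. The columns of NSC and AGES resemble each other in the Hox and forebrain rows and in the imprinted genes from Nnat to Cdkn1c, and differ from the 4 groups of primary astrocytes.

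Imprinted genes, which are expressed from the maternal or the paternal copy only, were split between loss and gain in NSCs. Of 32 tested, 10 were higher and 20 lower, and 8 were at the floor in NSCs (median log2 fold change −4.90, −2.58 with these at their bound). Igf2, the paternally expressed fetal growth factor (chromosome 7 of GRCm38 from 142650766 to 142666816), had 0.228, 0.273, 0.287 and 0.401 CPM in NSCs and 266, 265, 171 and 279 CPM in neoAC direct. H19, the maternally expressed non-coding RNA beside it, had 3 counts in the 4 NSC libraries together and 61.8, 55.1, 42.8 and 50.1 CPM in neoAC direct, scaled for library size a ratio of 2193 with a 95% counting interval of 750.0 to 10636 in favour of neoAC direct. Both members of this pair were thus near 0 in NSCs, although they come from opposite parental copies. The same held for the Dlk1 and Meg3 locus. Meg3 was at 0.208 ± 0.0430 CPM in NSCs and 88.98 ± 17.7 CPM in neoAC direct, Rian at 0.0946 ± 0.0484 CPM in NSCs and 25.6 ± 5.44 CPM in neoAC direct and Dlk1 at 3.18 ± 0.669 CPM in neoAC direct with NSCs at the floor. Nnat (0.943 ± 0.351 CPM in NSCs and 555 ± 56.1 CPM in neoAC direct), Ndn (0.167 ± 0.0842 CPM in NSCs and 143 ± 33.2 CPM in neoAC direct), Peg13 (0.0969 ± 0.0476 CPM in NSCs and 40.4 ± 2.72 CPM in neoAC direct) and Grb10 (0.128 ± 0.0782 CPM in NSCs and 34.2 ± 2.58 CPM in neoAC direct) were likewise lower in NSCs without overlap.

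Other imprinted genes were abundant in NSCs. Peg10, a domesticated retroelement gene expressed from the paternal copy, had 1402, 999, 1242 and 1155 CPM in NSCs and 32.6, 30.05, 30.5 and 35.7 CPM in neoAC direct (log2 fold change 5.22 with a standard error of 0.231, edgeR adjusted p = 6.03e-16), and its neighbour Sgce was also higher (98.2 against 38.4 CPM). Mest was at 997 ± 132 CPM in NSCs and 105 ± 9.897 CPM in neoAC direct, Peg3 at 243 against 107 CPM and Igf2r, the maternally expressed receptor that clears IGF2, at 185 against 84.05 CPM. Within the Prader-Willi region of chromosome 7, Ndn was nearly absent from NSCs and Magel2 had no count in any NSC library against 1.66 ± 0.551 CPM, while Peg12 (47.4 against 9.07 CPM) and Mkrn3 (9.78 against 4.25 CPM) were higher and Snrpn was lower (16.2 against 34.99 CPM). AGES held 0.246 ± 0.0964 CPM of Meg3, 0.202 ± 0.0618 CPM of Ndn and 0.861 ± 0.224 CPM of Nnat, against 185 ± 24.3 CPM, 119 ± 32.3 CPM and 229.8 ± 21.8 CPM in neoAC CellC. Mest and Peg10 were lower in AGES than in NSCs, as 33.9% of all genes were, at 56.9 ± 20.5 CPM and 115 ± 46.9 CPM (edgeR adjusted p = 4.37e-13 and 7.35e-13).

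The beta protocadherins, clustered cell surface proteins that neural cells use to tell each other apart, were higher in NSCs for 19 of 22 members and lower for 2 (median log2 fold change 2.41), with 1 lower when any of the NSC libraries or neoAC direct replicate 2 was left out. Pcdhb22 had 76.6, 69.7, 66.5 and 70.1 CPM in NSCs and 5.75, 5.65, 6.15 and 6.69 CPM in neoAC direct. Pcdhb11 (38.9 ± 2.94 CPM in NSCs and 0.870 ± 0.171 CPM in neoAC direct) and Pcdhb21 (34.5 ± 2.67 CPM in NSCs and 1.22 ± 0.215 CPM in neoAC direct) had the highest log2 fold changes of the cluster, 5.48 and 4.82. The sum over the cluster was 423, 410.2, 378 and 440.1 CPM in NSCs and 52.98, 50.6, 53.1 and 60.4 CPM in neoAC direct. These genes are alike in sequence and some overlap, so the counts of a single member are uncertain. Of 17 germline genes 9 passed the filter, 2 of them higher in NSCs, Stag3 (16.6 against 6.17 CPM) and Dmrtb1 (4.19 against 1.13 CPM), and 6 lower.

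Genes of glucose use were called in each direction at close to the shares of all genes, and NSC replicate 2 stood apart in them. The summed level of the glycolysis list was 7856, 13222, 8814 and 7305 CPM in NSC replicates 1 to 4 and 8897, 9684, 9528 and 7574 CPM in neoAC direct. Over all libraries 9 of 25 members were higher and 11 lower in NSCs (median log2 fold change −0.04), against 37.4% and 42.5% of all genes tested. Without replicate 2 the counts were 8 and 13 (median −0.48). Pdk1, which blocks entry of pyruvate into mitochondria and is a target of hypoxia-inducible factor, had 9.03, 70.1, 8.25 and 6.92 CPM in NSCs and 50.2, 49.1, 51.8 and 57.2 CPM in neoAC direct, so replicate 2 lay above the astrocytes and the other 3 far below them. Its call as lower (log2 fold change −1.14, edgeR adjusted p = 0.0346) became −2.69 without replicate 2 (adjusted p = 3.25e-16), and was lost without any one of the other libraries (adjusted p from 0.0508 to 0.105). Slc2a3, a glucose transporter, had 7.82, 60.4, 7.55 and 7.69 CPM and 9.23, 8.86, 9.28 and 9.78 CPM. Its call as higher in NSCs (log2 fold change 1.17) turned to −0.27 without replicate 2 (edgeR adjusted p = 0.0646) and was lost without any one of the neoAC direct libraries (adjusted p from 0.0512 to 0.0621). Ldha, the lactate dehydrogenase subunit that favours lactate, had 1063, 1968, 1220.0 and 937 CPM and 339, 336, 349 and 297 CPM, and remained higher without replicate 2 (log2 fold change 1.97 with and 1.70 without it). Hk2, the growth-linked hexokinase, was higher in all 4 NSC libraries (80.1, 108, 87.5 and 74.7 CPM against 19.96, 18.9, 23.2 and 18.1 CPM), as was Pkm (1559.5 against 514 CPM). Pygb, which breaks down astrocyte glycogen, was lower (158 against 1059 CPM), and Pdk4, an inhibitor of pyruvate use under fasting, was at 97.04 ± 6.21 CPM in neoAC direct with NSCs at the floor.

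**Figure D4:**
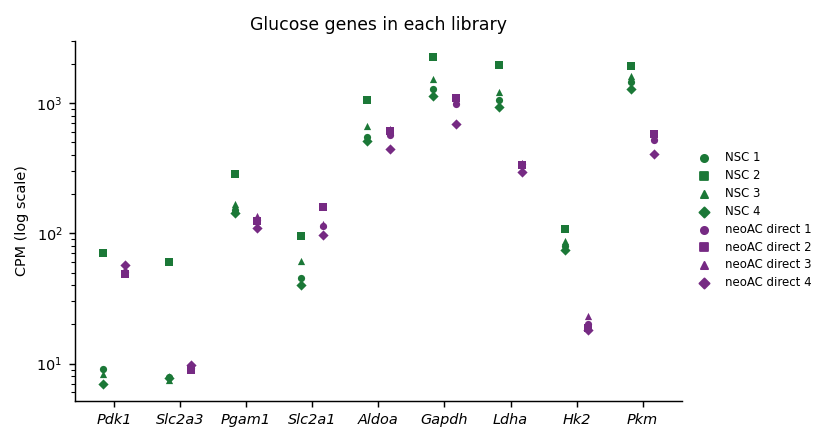
CPM on a log scale (vertical axis) of genes for glucose uptake and use in each of the 8 libraries, green for NSC and purple for neoAC direct, with 1 marker shape for each replicate number. The square of NSC replicate 2 lies above the other NSC libraries in every gene shown, most clearly in Pdk1 and Slc2a3.

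Within some pairs of genes that share a role the main gene differed, and within others it was the same in NSCs and neoAC direct. On the scale of CPM per kilobase of exon, Ldha made up 87.95 ± 3.30% of Ldha and Ldhb in NSCs and 25.9 ± 1.37% in neoAC direct, and Aldoa 65.5 ± 8.83% and 24.1 ± 1.28% of Aldoa and Aldoc, the astrocyte aldolase. Hk2 made up 50.2 ± 1.13% and 19.5 ± 1.46% of Hk2 and Hk1, so that pair was near even in NSCs. Slc1a3 was the main gene of Slc1a3 and Slc1a2 in both groups, at 91.6 ± 2.40% in NSCs and 64.6 ± 2.37% in neoAC direct. Of the gap junction genes Gjc1 and Gja1, Gjc1 made up 86.4 ± 1.32% and 4.11 ± 0.406%. Gjc1 itself was higher in NSCs by a small step only (48.1 against 28.2 CPM, log2 fold change 0.77) and Gja1 was far lower. The ranges of the pair Nfic and Nfia overlapped (50.5 ± 3.27% and 45.03 ± 6.42%).

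**Figure D5:**
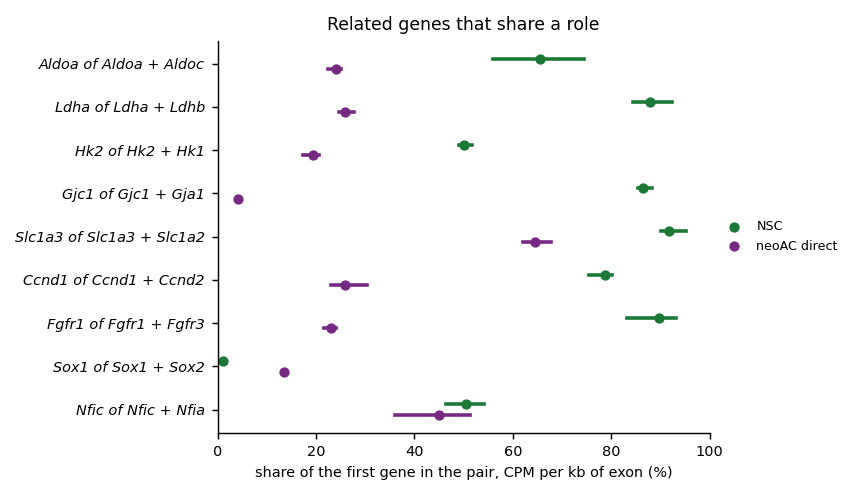
Share of the first gene in pairs of related genes (horizontal axis, in percent of CPM per kilobase of exon), with a point at the mean of 4 libraries and a line from the lowest to the highest library, green for NSC and purple for neoAC direct. The pair of Gjc1 and Gja1 is the furthest apart of the pairs shown, and the lines overlap for Nfic and Nfia only.

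Ribosomal protein genes were higher in NSCs almost throughout. Of 73 cytosolic ribosomal protein genes 71 were higher in NSCs (median log2 fold change 1.68), with 44336, 58669, 49139 and 45155 CPM in sum in NSCs and 15608, 15527, 17656 and 13513 CPM in neoAC direct. Rpsa was at 2350.1 ± 509 CPM in NSCs and 452 ± 68.2 CPM in neoAC direct and Rps2 at 1609.7 against 366 CPM. Rpl29 was the member lower in NSCs (61.8 against 154 CPM). Many of these genes have processed copies elsewhere in the genome, which can draw reads from them. Nuclear genes of the respiratory chain were higher for 52 of 77 and lower for 6, by a small median of 0.36, and 10 were lower without neoAC direct replicate 4. Of the 13 mitochondrially encoded genes 9 were higher (median 1.01), but the sums overlapped, with 24515, 29446, 16770.0 and 20927 CPM in NSCs and 10712, 10295, 10379 and 19366 CPM in neoAC direct, where replicate 4 was highest. Without that library the median was 1.65, with 13 genes higher.

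Genes of serine and one-carbon metabolism, which supplies units for nucleotide synthesis, moved in both directions, 6 of 17 higher and 9 lower in NSCs (median log2 fold change −0.53). Shmt1 had 127, 93.96, 148 and 132 CPM in NSCs and 6.27, 4.74, 7.92 and 5.95 CPM in neoAC direct, Mthfd2 69.01, 109, 94.8 and 67.9 CPM and 7.61, 5.29, 7.24 and 6.05 CPM, and Mthfd1l 137 against 6.49 CPM, each without overlap. Aldh1l1, the astrocyte enzyme that burns formyl units, was at 18.8 ± 9.397 CPM in NSCs and 1228 ± 174 CPM in neoAC direct, and its mitochondrial relative Aldh1l2 at 1.24 against 24.8 CPM. Cbs, of cysteine synthesis (16.9 against 423 CPM), and Phgdh, of serine synthesis (373 against 692 CPM), were lower, and Psat1, also of serine synthesis, was slightly higher (542 against 429.9 CPM, log2 fold change 0.33). Fatty acid binding and oxidation genes were lower for 16 of 21, including Cpt1a, the carnitine transferase that admits fatty acids to mitochondria (74.3 against 378 CPM) and the coactivator Ppargc1a (6.03 against 77.4 CPM), and Cpt2 was the member higher (40.9 against 23.8 CPM).

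Cholesterol synthesis differed little, with 6 of 21 genes higher and 11 lower and a median of −0.32. CCAAT stood in 14 of 17 windows of these genes (82.4%) and the sterol letters TCACNCCAC in 1 of 17 (5.88%), against 37.3% and 1.25% of all. Windows were found for 14 of 21 genes, and a share that rests on 1 match is uncertain. Genes of cholesterol transport were lower for 10 of 13, among them the exporter Abca1 (18.8 against 725 CPM), with the HDL receptor Scarb1 the one higher (419 against 91.9 CPM). Of 20 metallothionein and antioxidant genes 9 were higher and 9 lower. The metallothioneins Mt2 (2.21 ± 0.417 CPM in NSCs and 174 ± 12.04 CPM in neoAC direct), Mt3 (56.2 against 567 CPM) and Mt1 (47.05 against 263 CPM) were all lower. The antioxidant genes were split. Hmox1 (99.5 against 20.8 CPM) and Txnrd1 (319 against 77.9 CPM) were higher, and Gclm and Nqo1 slightly so (log2 fold changes 0.34 and 0.44). Gclc, Gsta4 and Gstm5 were lower (log2 fold changes −0.51, −1.30 and −3.15), and Srxn1 did not pass the test. Thyroid hormone genes were lower for 8 of 10. Dio2, the deiodinase with which astrocytes activate the hormone, had 0.650 ± 0.162 CPM in NSCs and 395 ± 60.4 CPM in neoAC direct, and its carrier Slco1c1 0.399 ± 0.0610 CPM in NSCs and 389 ± 49.7 CPM in neoAC direct.

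Receptors by which astrocytes sense neurons were mostly lower in NSCs, 18 of 25. Ednrb, the endothelin receptor of astrocytes, had 4.08 ± 1.34 CPM in NSCs and 1434 ± 186 CPM in neoAC direct, the glutamate receptor Grm3 15.9 ± 2.86 CPM in NSCs and 513 ± 9.796 CPM in neoAC direct, and the GABA-B subunits Gabbr1 and Gabbr2 83.1 against 1513 CPM and 29.7 against 454 CPM. Against this, Chrm3, the M3 muscarinic acetylcholine receptor (chromosome 13 of GRCm38 from 9875486 to 10360847), had 127, 119.9, 126 and 127 CPM in NSCs and 0.0975, 0.332, 0.238 and 0.432 CPM in neoAC direct (log2 fold change 8.80 with a standard error of 0.293, edgeR adjusted p = 7.89e-19). It was steady across the NSC cultures. In AGES its level was 4.84 ± 1.303 CPM, and in neoAC CellC 0.784 ± 0.362 CPM. Itpr1, a calcium channel of the endoplasmic reticulum downstream of such receptors, was higher too (205 ± 10.05 CPM in NSCs and 25.5 ± 4.46 CPM in neoAC direct). Factors that form or prune synapses were lower for 18 of 20, with the phagocytic receptors Megf10 at 13.3 against 129 CPM and Mertk at 15.96 against 77.9 CPM. Pros1, a ligand of Mertk, was the member higher (68.4 against 34.7 CPM), while Gas6, another Mertk ligand, was lower (log2 fold change −5.28).

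Matrix genes of the brain were lower for 14 of 16. The lecticans Ncan (1304 against 9314 CPM) and Bcan (1243 against 3798 CPM) and the receptor phosphatase Ptprz1 (1077 against 10792 CPM) stayed abundant in NSCs. Others were near 0 in NSCs, with the link protein Hapln1 at 0.0566 ± 0.0417 CPM in NSCs and 115 ± 26.3 CPM in neoAC direct, Reln at 0.726 ± 0.381 CPM in NSCs and 452 ± 99.5 CPM in neoAC direct and Spock2 at 0.321 ± 0.129 CPM in NSCs and 383 ± 103 CPM in neoAC direct. The basement membrane list differed by laminin chain. Lama5 (526 ± 121 CPM in NSCs and 104 ± 19.7 CPM in neoAC direct), Lamb1 (132 against 37.2 CPM) and Lamc1 (1017 against 246 CPM) were higher in NSCs, and the alpha chains Lama2 (0.193 ± 0.132 CPM in NSCs and 112 ± 11.3 CPM in neoAC direct) and Lama4 (0.151 ± 0.0930 CPM in NSCs and 88.6 ± 11.5 CPM in neoAC direct) lower. Itgb1 was higher (1349 against 485 CPM) and its partners Itga6 (36.6 against 292 CPM) and Itga7 (1.54 against 199.8 CPM) lower. Col1a1 (0.831 against 60.2 CPM), Col1a2 (0.338 against 122 CPM), Lama2 and Lama4 are also made by vascular and meningeal cells, whose markers are given below. Of 26 genes for actin and culture on plastic 7 were higher and 16 lower. Lgals1, the secreted lectin galectin 1, had 1092, 1787, 1101 and 1182 CPM in NSCs and 17.4, 18.2, 17.3 and 15.1 CPM in neoAC direct. Tagln2 (0.373 ± 0.204 CPM in NSCs and 43.5 ± 4.58 CPM in neoAC direct) and Ccn1 (21.7 against 1002 CPM), a YAP target and immediate early gene, were lower. Of 18 adhesion genes 14 were lower, such as Cdh11 (0.194 ± 0.0773 CPM in NSCs and 126 ± 4.46 CPM in neoAC direct) and Cdh20 (0.182 ± 0.0830 CPM in NSCs and 92.8 ± 2.42 CPM in neoAC direct), and Cdh4, which encodes R-cadherin, was higher (605 ± 62.2 CPM in NSCs and 101 ± 17.4 CPM in neoAC direct).

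Immediate early genes, which cells switch on within minutes of a stimulus, were far lower in NSCs. Of 24 immediate early and heat shock genes 22 were lower in NSCs and 2 higher (median log2 fold change −4.95). Fos had 12.4, 4.61, 2.102 and 5.15 CPM in NSCs and 4767, 3837, 4185 and 3428 CPM in neoAC direct (log2 fold change −9.39 with a standard error of 0.453, edgeR adjusted p = 1.24e-14), and its log2 fold change was −10.00 without NSC replicate 1. Nr4a1 was at 6.58 against 1381 CPM, Egr1 at 67.3 against 2128 CPM, Junb at 9.49 against 786 CPM and Zfp36 at 3.47 against 515 CPM. The members higher in NSCs were Hsp90aa1 (852 against 375 CPM) and Dnajb1 (84.5 against 72.7 CPM, log2 fold change 0.22, edgeR adjusted p = 0.0215), and the call on Dnajb1 was lost without NSC replicate 3 or neoAC direct replicate 3 (adjusted p = 0.0960 and 0.0961). The other direct group, AdAC direct, held 529 ± 117 CPM of Fos and neoAC CellC 53.5 ± 9.54 CPM. The neoAC direct cells were dissociated from tissue shortly before freezing, and the part of dissociation in these levels was not tested.

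Immune genes were mostly lower in NSCs. Of 14 genes of MHC class I presentation 2 were higher and 9 lower in NSCs, with H2-D1 lower (10.3 against 33.3 CPM). H2-K1 did not pass the test (53.05 against 57.7 CPM), and was lower without NSC replicate 2 (log2 fold change −0.44, edgeR adjusted p = 0.0181). Of 18 interferon-stimulated genes 13 were lower, and 6 of the list were at the floor in NSCs. Irf1 was at 9.93 against 80.3 CPM. Complement and reactive astrocyte genes were lower for 15 of 18, with C4b at 5.93 ± 2.33 CPM in NSCs and 124 ± 16.5 CPM in neoAC direct and Serpina3n at 3.65 ± 0.642 CPM in NSCs and 87.7 ± 4.798 CPM in neoAC direct. C3 and Lcn2 did not pass the test (2.08 against 1.29 CPM and 0.554 against 0.410 CPM).

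Markers of other cell types moved with the comparison. Mural and fibroblast markers summed to 543, 781, 379 and 585 CPM in neoAC direct and 10.3 to 14.6 CPM in NSCs (0 of 12 higher and 11 lower in NSCs), with Rgs5 of pericytes at 127, 279, 91.2 and 182 CPM in neoAC direct. Endothelial markers summed to 165, 421, 107 and 152 CPM in neoAC direct and 10.1 to 17.3 CPM in NSCs (0 of 10 higher and 9 lower), with Cldn5 at 33.9, 94.6, 20.4 and 24.6 CPM. Replicate 2 was highest in both, as it was in the globin genes of red blood cells, at 66.3 CPM against at most 20.4 CPM in the other neoAC direct libraries. Microglia and macrophage markers summed to 42.3, 156, 51.5 and 72.98 CPM in neoAC direct and 48.3 to 67.6 CPM in NSCs (1 of 15 higher and 13 lower), and 9 of them, C1qa and Cx3cr1 among these, were at the floor in NSCs and 0 in neoAC direct. Choroid plexus markers summed to 987, 1254, 1210.0 and 605 CPM in neoAC direct, nearly all of it Ttr, with 934, 1194, 1157 and 557 CPM. The part of these cells in the differences above was not tested.

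Ependymal and motile cilium genes were lower in NSCs for 12 of 14 (58.5 to 100.4 against 244 to 399.8 CPM in sum), Foxj1 at 18.4 ± 3.65 CPM in NSCs and 115 ± 23.3 CPM in neoAC direct. Markers of neurons and neuroblasts gave 3 of 20 higher and 13 lower (660.1 to 875 and 544 to 708 CPM in sum). Map2 (595 against 386 CPM), Sox11 (133 against 64.9 CPM) and Gad1 (18.2 against 2.86 CPM) were higher in NSCs, whereas the synaptic genes Snap25 (0.0398 ± 0.0300 CPM in NSCs and 7.05 ± 1.29 CPM in neoAC direct) and Syt1 (0.0657 ± 0.0727 CPM in NSCs and 8.78 ± 1.94 CPM in neoAC direct) were near 0 there. Markers of oligodendrocyte precursors gave 3 of 9 higher and 5 lower. Bcas1, of early myelinating cells, was higher in NSCs (167, 131, 179 and 199 CPM against 3.77, 4.51, 2.24 and 3.16 CPM), with transcripts on the opposite strand, while the defining precursor genes Cspg4 (0.734 against 50.6 CPM) and Sox10 (0.305 against 3.15 CPM) were lower and Pdgfra did not pass the test (11.4 against 14.8 CPM). Without neoAC direct replicate 3 Pdgfra was lower (log2 fold change −0.59, edgeR adjusted p = 0.00617). Oligodendrocyte markers gave 0 of 10 higher and 6 lower, and summed to 9.85 to 15.6 CPM in NSCs and 301 to 372 CPM in neoAC direct. Mbp, at 4.302 against 10.5 CPM, was a small part of the sum in neoAC direct.

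Genes that passed the test without overlap, and whose mean reached 10 CPM in NSCs or neoAC direct, were ranked by log2 fold change. The 10 highest in NSCs were Hoxa3, Hoxa5, Pax9, Vax2, Hoxb4, Hoxa2, Hoxa7, Halr1, Car6 and Hoxb3os. Pax9, a paired box factor, had 22.4, 21.9, 20.7 and 19.8 CPM in NSCs, and Vax2, a homeobox factor of the ventral eye, 18.3, 18.3, 18.5 and 17.8 CPM, both steady across passages, with neoAC direct at the floor. Car6, a secreted carbonic anhydrase, varied most, with 23.96, 22.2, 70.6 and 15.7 CPM in NSCs. Halr1, a lincRNA of the Hoxa region, was at 65.6 ± 13.5 CPM in NSCs and 0.0679 ± 0.0496 CPM in neoAC direct, and Hoxb3os is an antisense transcript over Hoxb2 and Hoxb3. The genes furthest lower included Kif26a, Pcdh20, Slc22a8, Hgf, Cd14, Gabrb2, Pdyn, Rassf10 and Nkx2-2, all at the floor in NSCs. Hgf, the hepatocyte growth factor, had 51.6 ± 5.19 CPM in neoAC direct, the ras-association gene Rassf10 47.2 ± 5.84 CPM, and Pdyn, which encodes the opioid precursor prodynorphin, 30.3 ± 3.603 CPM. Kif26a, an atypical kinesin, with 22.1 ± 5.63 CPM, and Pcdh20, with 21.7 ± 4.67 CPM, had no count in any NSC library and were at least 229-fold and at least 225-fold lower. Slc22a8, an organic anion transporter, varied among neoAC direct libraries (14.1, 35.4, 7.92 and 14.7 CPM).

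Ranked by the difference in mean CPM, the genes with the largest gain in NSCs were Eef1a1, mt-Cytb, Hsp90ab1, Serpine2, Nptx1, Tubb5, Rpsa, mt-Nd1, Mmp15 and Hspa5. Eef1a1, the elongation factor of translation, was at 8032 ± 959.7 CPM in NSCs and 2352 ± 239 CPM in neoAC direct, and Tubb5, a tubulin of dividing cells, at 2425 ± 108 CPM in NSCs and 339 ± 57.7 CPM in neoAC direct. Nptx1, a secreted neuronal pentraxin, had 2291, 2867, 2135 and 2138 CPM in NSCs and 35.2, 20.8, 28.2 and 26.2 CPM in neoAC direct (log2 fold change 6.42 with a standard error of 0.444, edgeR adjusted p = 1.27e-11). Mmp15, a membrane-bound metalloproteinase, was at 1702 ± 91.5 CPM in NSCs and 162 ± 26.1 CPM in neoAC direct, and Serpine2, a protease inhibitor, at 3508 ± 779 CPM in NSCs and 1171 ± 55.2 CPM in neoAC direct. Nptx1 fell to 21.2 ± 3.58 CPM in AGES (edgeR adjusted p = 1.08e-11). The genes with the largest difference in the other direction included Apoe, Ptprz1, Ncan, Cpe, Sparcl1, Slc1a2, Slc1a3, Fabp7 and Slc6a11. Cpe, the carboxypeptidase that trims secreted peptides, was at 289 ± 42.4 CPM in NSCs and 7911 ± 499 CPM in neoAC direct, and Fabp7, the fatty acid binding protein of radial glia, had 701, 755, 1039 and 729 CPM in NSCs and 6009, 5086, 6686 and 5815 CPM in neoAC direct.

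Nnt, a mitochondrial transhydrogenase gene that is partly deleted in C57BL/6J mice, was higher in NSCs (94.1, 109, 105 and 92.9 CPM) than in neoAC direct (38.2, 39.6, 38.8 and 43.3 CPM), and the annotation holds overlapping models of it. The substrain of the cell line and of the mice cannot be told apart from the cell type for this gene or any other.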

How the data were processed

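RNA was measured by paired-end sequencing of stranded poly(A)-selected libraries. The authors aligned reads with STAR 2.7.3a to GRCm38 and assigned them to exons with featureCounts, and deposited raw gene counts. The annotation was Gencode, and the strand and multimapper settings of counting are not given in the sources used here, so genes with an antisense overlap or close copies are uncertain. All 24 libraries of 6 groups entered a single fit with edgeR 4.0.16 in R 4.3.3 (TMM, filterByExpr, robust quasi-likelihood test, two-sided), and p-values of NSCs minus neoAC direct were adjusted by Benjamini-Hochberg over all 19691 genes. Genes on X (690), on Y (8) or without a known chromosome (52) were then left out, because the pups were of both sexes. Columns were assigned to samples by their titles. CPM values use TMM library sizes, and paralogue shares divide them by the exon length of the gene.

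Named genes were list and pair members as examples of their list, and in each direction the 10 genes with the largest log2 fold change and the 10 with the largest difference in CPM, among called genes without overlap whose larger group mean reached 10 CPM. The genes, lists and pairs were chosen with earlier results of these data known. Results of some list members and ranked genes are not reported here. The NSC replicates were independent cultures of a single line and the neoAC direct replicates separate isolations of pooled mice. The p-values therefore measure the spread between such replicates, estimated from all 24 libraries of the 6 groups and not from these 8 alone. No pair of replicates was alike within sampling noise (chi-square per gene at least 10.1). Totals of 30371350 to 35192197 counts in NSCs and 30502488 to 37997368 in neoAC direct set a floor of 3 counts, and counting intervals are exact binomial at 95%. Alternatives were DESeq2 1.42.0 size factors and Wald test, other filters, glmTreat, the 8 libraries alone with and without the replicate number as a block, and leaving out each library. The procedure was tested on simulated data. Promoters and motif shares use RefSeq windows of GRCm38.p6.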

Additional observations from a re-analysis of the deposited data

Results flagged for a closer look

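Among the 4 libraries of a group, the highest or lowest value was compared with the others by Dixon's ratio, the gap to the nearest library divided by the whole range, and flagged above its 95% critical value. Of 493 sets of 4 values behind the genes and summed lists described, 46 lay above it, where chance gives about 1 in 20. Sets at the floor were not tested. NSC replicate 2 accounted for 21 of the 46. It was the highest NSC library, with the ratio in parentheses, for Aldh1l2 (0.922), Cpt1a (0.932), Cpt2 (0.843), Fgfr3 (0.852), H2-K1 (0.887), Hes5 (0.889), Hoxb4 (0.905), Lgals1 (0.870), Mmp15 (0.910), Notch3 (0.853), Pdk1 (0.967), Pros1 (0.877), Sgce (0.892) and Slc2a3 (0.995). It was the lowest for Acsbg1 (0.842), Ccne2 (0.935), Chrm3 (0.850), En1 (0.875), Pax7 (0.855) and Sox8 (0.908), and for the summed mural and fibroblast markers (0.922), at 10.3 CPM against 14.3 to 14.6 CPM.

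The gene furthest apart was Slc2a3, with 60.4 CPM in NSC replicate 2 and 7.55 to 7.82 CPM in the other NSC libraries, and Pdk1 was next, with 70.1 against 6.92 to 9.03 CPM. Both belong to glucose use. NSC replicate 3 was highest for Car6 (0.849), Fabp7 (0.841), Hoxb9 (0.843), Mcm6 (0.916) and Serpine2 (0.884), and lowest for Sox2 (0.873). NSC replicate 1 was highest for Lama2 (0.954). NSC replicate 4 was highest for Nr4a1 (0.860) and lowest for Lamc1 (0.922).

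In neoAC direct, replicate 4 accounted for 7 sets and replicate 2 for 7. Replicate 4 was highest for Itgb1 (0.943), Mertk (0.851), Pcdh20 (0.912) and Snap25 (0.897), and lowest for Nfix (0.862) and Sox9 (0.869). Its summed mitochondrially encoded level (0.954) was 19370.0 CPM against 10300.0 to 10710.0 CPM. Replicate 2 was highest for Cdkn2a (0.835), Clu (0.873), Pax7 (0.836), Sox10 (0.898) and Spock2 (0.868), and lowest for Cdc6 (0.854) and Mest (0.883). Replicate 3 was lowest for Igf2 (0.869) and Pdyn (0.835).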

How the results depend on the processing

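The 7086 genes higher and 8058 lower in NSCs became 6350 higher and 8699 lower with DESeq2 size factors, 6598 higher and 9285 lower with the DESeq2 Wald test, 6886 higher and 9192 lower with no filter and 6277 higher and 7309 lower at a minimum of 1 CPM in 4 libraries. Tested against a log2 fold change of 1 (glmTreat), 3080 higher and 5326 lower remained past the threshold, fewer by construction. Leaving out each library in turn gave 6932 to 7124 higher and 7919 to 8079 lower. NSC and neoAC direct replicates of the same number came from different cells. The correlations of same-numbered deviations were 0.0512 to 0.0856, against −0.106 to 0.0613 for pairs with different numbers. The highest of those was NSC replicate 1 with neoAC direct replicate 2. The next was 0.0118, for NSC replicate 4 with neoAC direct replicate 3, below every same-numbered pair. Whether libraries of the same number shared a batch was not tested. With the replicate block on the 8 libraries 6345 higher and 7451 lower passed, against 6021 higher and 6855 lower without the block. The log2 fold change of Slc2a3 reversed to −0.27 without NSC replicate 2 and was at most 1.45 without another library, and Slc2a3 was the only named gene to change sign after a call in the settings run. For named genes, 13 values lost and 2 gained a call when a library was left out, of 1984, and 42 lost and 6 gained one under the other settings, of 2229. Without NSC replicate 2 the median of the imprinted list was −5.68, and on the 8 libraries alone 2 germline genes were higher and 2 lower of 4 tested. The causes of these shifts were not tested. At the depth of these libraries, differences between genes at the floor in both groups were not detectable.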
